A study of Mus musculus with 5 samples.

Results

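Tenascin-C, the thrombospondins, SPARC, fibrillin-1, elastin, emilin-1, AEBP1, lumican and decorin are matricellular, elastic fibre and associated proteins of the extracellular matrix. Their 10 genes, Tnc, Thbs1, Thbs2, Sparc, Fbn1, Eln, Emilin1, Aebp1, Lum and Dcn, were matched by symbol among 24808 symbol-bearing rows of the deposited count tables, and all 10 were among the 13590 genes with enough reads to test. The genes were chosen from a larger set of matrix genes on their measured differences between the groups compared here, so every difference below is a description and carries no test. Liver RNA came from C57BL/6 mice with a labelled age of 16 weeks. All mice had received carbon tetrachloride (CCl4), a toxin of hepatocytes that scars the liver when given repeatedly. The 3 CCl4 libraries stand against 2 CCl4+givinostat libraries, from mice that also received givinostat, an inhibitor of histone deacetylases. There is no group without CCl4. The sources used here do not give dose, route, schedule or sex.

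Matricellular proteins are secreted into the matrix but bear little load. They tune how cells grip the matrix and how growth factors reach them, and several are made mainly during repair. Elastic fibres consist of a core of cross-linked elastin on a sheath of fibrillin microfibrils, which also hold latent TGF-beta, the main profibrotic cytokine, in store. Lumican and decorin are small leucine-rich proteoglycans that coat collagen fibrils and set their diameter. In the scarred liver, hepatic stellate cells, portal fibroblasts and mesothelial cells are sources of such proteins.

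Library totals ran from 18634801 to 21773867 counts. Principal components of log2 CPM (CPM is the read count scaled to library depth) set CCl4 replicate 1 apart from the other CCl4 libraries. On the first component, with 38.0% of the variance, it scored 33.9 against -19.5 and -35.0 for CCl4 replicates 2 and 3. The givinostat libraries lay at 6.47 and 14.1, and separated from all CCl4 libraries on the second component, with 30.6% of the variance. Hepatocyte markers, albumin among them, summed to 98226 to 106995 CPM with CCl4 and to 99698 to 106667 CPM with givinostat. Most of that sum is albumin. The other 9 genes, in a sum added after seeing the data, overlapped at 26126 to 30204 CPM and 27149 to 30014 CPM. Of the 10 tested, 4 were lower and 6 higher. Cyp2e1 was higher without overlap, at 859 to 1038 CPM with CCl4 and at 3040 and 1639 CPM in givinostat replicates 1 and 2. In bulk RNA, fewer cells of a type and less RNA in each cell cannot be told apart.

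Promoters are shown for Tnc and Aebp1, the members with the largest differences between the groups, and for Thbs2, whose values hardly differed. Of the 10 genes, 6 had an entry in the RefSeq promoter table for GRCm38.p6, which gives 250 bases before and 50 after a gene's start. Capitals mark every match, on either strand, to 6 short motifs, and no matches overlapped in these windows. The motifs were the TATA box (TATAAA), the GC box (GGGCGG), AP-1 (TGANTCA), TEAD (GGAATG), the CCAAT box (CCAAT) and the SMAD box (GTCTG).
Tnc, chr4:64046966-64047265, minus strand: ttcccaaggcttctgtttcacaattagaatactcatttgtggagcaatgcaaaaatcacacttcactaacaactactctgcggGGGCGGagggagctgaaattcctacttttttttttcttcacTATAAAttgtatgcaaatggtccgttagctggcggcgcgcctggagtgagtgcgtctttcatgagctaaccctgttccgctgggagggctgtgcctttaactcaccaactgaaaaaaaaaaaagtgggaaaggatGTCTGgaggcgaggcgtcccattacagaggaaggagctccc
Aebp1, chr11:5861616-5861915, plus strand: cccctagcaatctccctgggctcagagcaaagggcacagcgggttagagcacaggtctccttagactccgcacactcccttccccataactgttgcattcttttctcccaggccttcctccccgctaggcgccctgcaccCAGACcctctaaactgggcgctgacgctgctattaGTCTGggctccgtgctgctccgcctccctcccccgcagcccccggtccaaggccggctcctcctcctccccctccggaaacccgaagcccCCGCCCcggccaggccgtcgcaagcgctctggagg
Thbs2, chr17:14694213-14694512, minus strand: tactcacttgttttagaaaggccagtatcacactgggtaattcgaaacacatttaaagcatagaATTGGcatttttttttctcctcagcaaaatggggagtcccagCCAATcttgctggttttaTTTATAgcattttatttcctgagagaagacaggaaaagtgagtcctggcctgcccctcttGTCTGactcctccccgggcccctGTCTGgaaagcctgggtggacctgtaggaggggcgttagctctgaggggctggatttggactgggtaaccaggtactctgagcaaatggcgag

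Tnc has 2 overlapping windows in the table. The one shown held the TATA letters, a GC box and 1 SMAD box, and the other held the TATA letters, a GC box and 2 SMAD boxes. The Aebp1 window held a GC box and 2 SMAD boxes but no TATA letters, and was GC-rich at 66.3% against a median of 52.7% over all 32851 windows. The Thbs2 window held the TATA letters, 2 CCAAT boxes and 2 SMAD boxes. SMAD boxes were in the windows of 5 of the 6 genes and in 49.6% of all windows, and TATA letters in 2 of the 6 and in 13.6% of all windows. GC boxes were in 3 of the 6 and in 35.7% of all windows, and CCAAT boxes in 2 of the 6 and in 37.4% of all windows. The AP-1 and TEAD letters were in none of these 6 genes' windows and in 7.81 and 14.7% of all windows. These are matches of letters only.

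Per kb of their longest coding transcript, the 10 genes spanned a wide range of levels with CCl4. Dcn stood highest at 91.8 ± 3.67 CPM per kb (SD, n = 3), followed by Sparc at 51.2 ± 9.55. Emilin1 at 10.04 ± 0.457 and Lum at 6.61 ± 1.74 formed the middle of the order. Eln reached 2.26 ± 0.443, and Thbs1 reached 1.71 ± 0.436 CPM per kb. Thbs2 at 0.945 ± 0.130, Aebp1 at 0.935 ± 0.247, Fbn1 at 0.572 ± 0.124 and Tnc at 0.418 ± 0.0366 closed the order. Neighbouring ranges overlapped between Eln and Thbs1, between Thbs2 and Aebp1 and between Aebp1 and Fbn1, and the other neighbours were separate in all 3 libraries. The least abundant matricellular transcript, Tnc, and the most abundant proteoglycan, Dcn, were thus both measured, with counts from 19 to 3943 per library over the 10 genes.

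**Figure D1:**
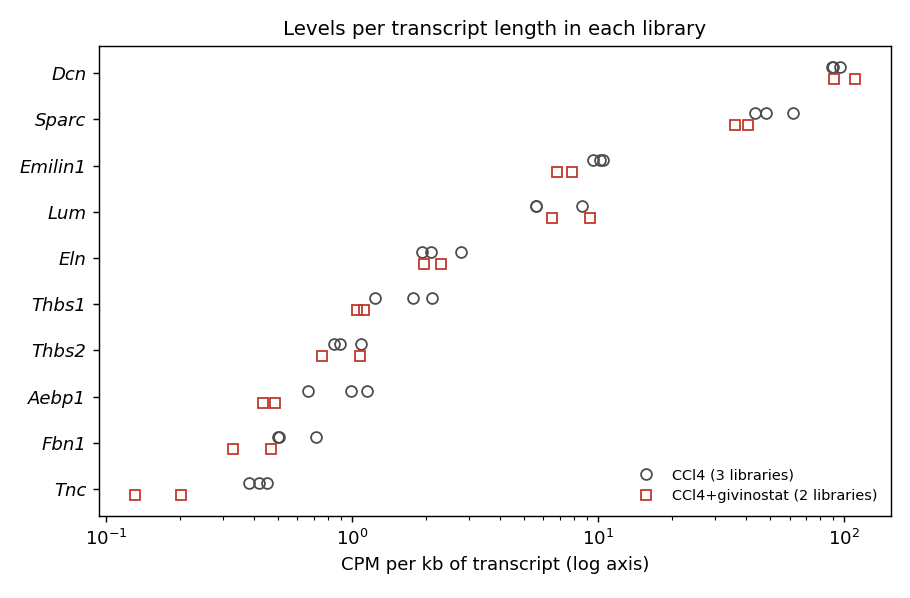
Level of each gene per kb of transcript (CPM per kb, log axis) in the 3 CCl4 libraries (circles) and the 2 CCl4+givinostat libraries (squares). Dcn and Sparc stand above the rest, and the Tnc squares lie to the left of the Tnc circles.

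With givinostat, 8 of the 10 genes had a lower fitted value and 2, the proteoglycan genes Lum and Dcn, a higher one. The median log2 fold change was -0.43, where the median of all tested genes was -0.02 and 53.8% of them had a negative value. Values of the groups did not overlap for 6 genes, all lower with givinostat, namely Tnc, Aebp1, Thbs1, Fbn1, Emilin1 and Sparc. Over all tested genes, 11.7% were lower without overlap and 11.7% were higher without overlap. None of the 10 passed an adjusted p of 0.05 in edgeR's quasi-likelihood test over all genes, which 0.00736% of genes did. At an unadjusted p under 0.05, 4 of the 10 were lower and 0 higher, where 3.93% of all tested genes were lower and 3.52% higher. DESeq2, an alternative count test that called 69 genes higher and 79 lower, also called 0 of the 10. Because these differences chose the genes, none of these counts is evidence for a change in the group. The median was -0.28 without CCl4 replicate 3.

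**Figure D2:**
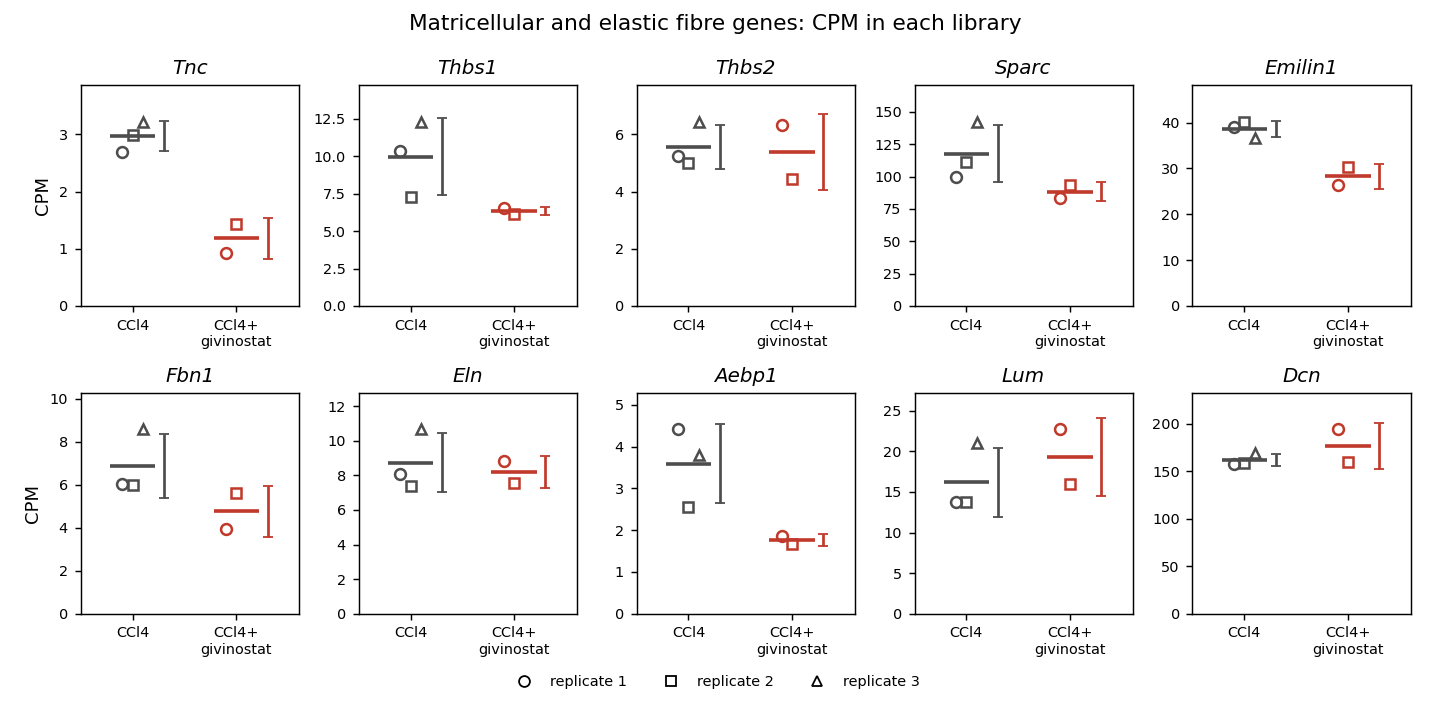
CPM of each gene in every library, by group, with the mean (bar) and SD (whisker, n = 3 and n = 2), each axis starting at 0. Tnc, Aebp1, Thbs1, Fbn1, Emilin1 and Sparc have all CCl4 points above all givinostat points, whereas Thbs2, Eln, Lum and Dcn overlap.

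Among the matricellular genes, tenascin-C showed the largest difference. Tnc encodes a large branched glycoprotein that is sparse in healthy adult tissue and made at sites of injury (chromosome 4, 63959785 to 64047015, minus strand, GRCm38). Tnc drew 57, 62 and 62 reads in CCl4 replicates 1 to 3, and 19 and 32 reads under givinostat. Scaled by depth, that was 2.70, 2.98 and 3.22 CPM against 0.934 and 1.44 CPM. The CCl4 libraries lay close together and both givinostat libraries lay below them. Group means were 2.97 ± 0.260 CPM for CCl4 (SD, n = 3) and 1.19 ± 0.356 CPM for givinostat (SD, n = 2), and the log2 difference was -1.32 ± 0.34 (SE). Exact 95% Poisson intervals, which cover counting error only, were 11.4 to 29.7 and 21.9 to 45.2 counts for the givinostat libraries. The lowest lower bound of the CCl4 libraries was 43.2 counts, in replicate 1. The interval of givinostat replicate 2 reached just above it in counts that are not scaled by depth, and givinostat replicate 2 was the deeper library.

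Thbs1 and Thbs2 encode thrombospondin-1 and thrombospondin-2, related secreted glycoproteins that bind the receptors CD47 and CD36. Thrombospondin-1, which can free TGF-beta from its latent complex, is also stored in platelets. Thbs1 (chromosome 2, 118111876 to 118127133, plus strand) measured 10.4, 7.27 and 12.3 CPM in CCl4 replicates 1 to 3, then 6.53 and 6.15 CPM under givinostat (log2 difference -0.65 ± 0.26, SE). The givinostat libraries were close to each other, and CCl4 replicate 2 lay only just above them. Thbs2 (chromosome 17, 14665500 to 14694235, minus strand) measured 5.26, 5.004 and 6.44 CPM in CCl4 replicates 1 to 3, then 6.34 and 4.44 CPM under givinostat (log2 difference -0.05 ± 0.26, SE). Its givinostat libraries enclosed the lower CCl4 libraries. The ratio of Thbs1 to Thbs2 per kb within a library was 1.99, 1.46 and 1.93 with CCl4 and 1.04 and 1.39 with givinostat. These ratios did not overlap between the groups, with CCl4 replicate 2 the nearest to the givinostat libraries. Both genes were chosen on their differences between the groups, so the ratios are a description only.

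Platelet markers did not separate the groups. The 12 platelet and megakaryocyte genes summed to 23.5 to 34.8 CPM with CCl4 and to 27.1 to 31.6 CPM with givinostat. Of the 8 tested, 4 were lower and 4 higher.

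Sparc encodes osteonectin, a calcium- and collagen-binding protein needed for orderly collagen deposition (chromosome 11, 55394500 to 55423183, minus strand). Sparc measured 99.95, 111 and 142 CPM in CCl4 replicates 1 to 3, then 83.2 and 93.4 CPM under givinostat (log2 difference -0.42 ± 0.18, SE). CCl4 replicate 3 stood well above the others, and CCl4 replicate 1 was close to givinostat replicate 2. Without CCl4 replicate 3 the log2 fold change was -0.25.

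Among the elastic fibre genes of the 10, Emilin1 and Fbn1 lay lower with givinostat without overlap, whereas the groups overlapped for Eln. Emilin1 encodes a glycoprotein at the interface of elastin and microfibrils that restrains the processing of the TGF-beta precursor (chromosome 5, 30913402 to 30921277, plus strand). Emilin1 measured 39.1, 40.2 and 36.7 CPM in CCl4 replicates 1 to 3, then 26.3 and 30.3 CPM under givinostat (log2 difference -0.45 ± 0.15, SE). Its CCl4 libraries varied by a coefficient of variation of 4.55%, among the smallest of the 10 genes, and both givinostat libraries were clearly below them.

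Fbn1 encodes fibrillin-1, the backbone of microfibrils (chromosome 2, 125300594 to 125507993, minus strand). Fbn1 measured 6.02, 5.97 and 8.57 CPM in CCl4 replicates 1 to 3, then 3.93 and 5.61 CPM under givinostat (log2 difference -0.52 ± 0.28, SE). Givinostat replicate 2 lay just below the lower CCl4 libraries, and the difference was -0.29 without givinostat replicate 1, -0.32 without CCl4 replicate 3 and -0.80 without givinostat replicate 2. Gene models of GENCODE place 20.1% of Fbn1 exon bases across Gm9913 on the other strand, and the sources used here do not say whether counting used strand.

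Eln encodes tropoelastin, the soluble precursor of elastin (chromosome 5, 134702593 to 134747323, minus strand). Eln measured 8.10, 7.41 and 10.7 CPM in CCl4 replicates 1 to 3, then 8.84 and 7.54 CPM under givinostat (log2 difference -0.09 ± 0.23, SE). The givinostat libraries lay inside the range of the CCl4 libraries. The ratio of Fbn1 to Eln per kb within a library was 0.239, 0.259 and 0.259 with CCl4 and 0.143 and 0.239 with givinostat, so only givinostat replicate 1 stood apart. For Emilin1 to Eln it was 4.83, 5.42 and 3.45 with CCl4 and 2.98 and 4.01 with givinostat, so the groups overlapped.

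Aebp1 encodes a secreted collagen-binding protein, also called ACLP, whose loss in humans causes a connective tissue disorder (chromosome 11, 5861947 to 5872088, plus strand). Aebp1 drew 93, 53 and 73 reads in CCl4 replicates 1 to 3, and 38 and 37 reads under givinostat. Scaled by depth, that was 4.41, 2.55 and 3.79 CPM against 1.87 and 1.66 CPM (log2 difference -1.02 ± 0.34, SE). The givinostat libraries were nearly equal and lay below all CCl4 libraries, of which CCl4 replicate 2 was the lowest.

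Both small leucine-rich proteoglycan genes had higher fitted values with givinostat, and their groups overlapped. Dcn encodes decorin, which binds collagen fibrils and can hold TGF-beta away from its receptors (chromosome 10, 97479609 to 97518143, plus strand). Dcn measured 157, 158 and 169 CPM in CCl4 replicates 1 to 3, then 194 and 159 CPM under givinostat (log2 difference 0.13 ± 0.15, SE). Givinostat replicate 1 was highest, and givinostat replicate 2 lay within the CCl4 range. Lum encodes lumican, whose gene lies near Dcn in the same orientation (chromosome 10, 97565128 to 97572703, plus strand). Lum measured 13.7, 13.7 and 21.1 CPM in CCl4 replicates 1 to 3, then 22.7 and 15.9 CPM under givinostat (log2 difference 0.26 ± 0.25, SE). CCl4 replicate 3 and givinostat replicate 1 were high for Lum, and the groups overlapped. Without givinostat replicate 1 both genes were at -0.02.

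Set against Dcn within the same library, the ratios of Tnc and Sparc did not overlap between the groups. The ratio of Sparc to Dcn per kb was 0.485, 0.537 and 0.644 with CCl4 and 0.328 and 0.449 with givinostat. For Tnc to Dcn it was 0.00424, 0.00467 and 0.00472 with CCl4 and 0.00119 and 0.00223 with givinostat. These ratios do not depend on how libraries are scaled to each other. Their genes were chosen on the differences between these groups, and Tnc and Sparc did not overlap by themselves. The separation of the ratios thus adds no evidence to the values of the genes.

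**Figure D3:**
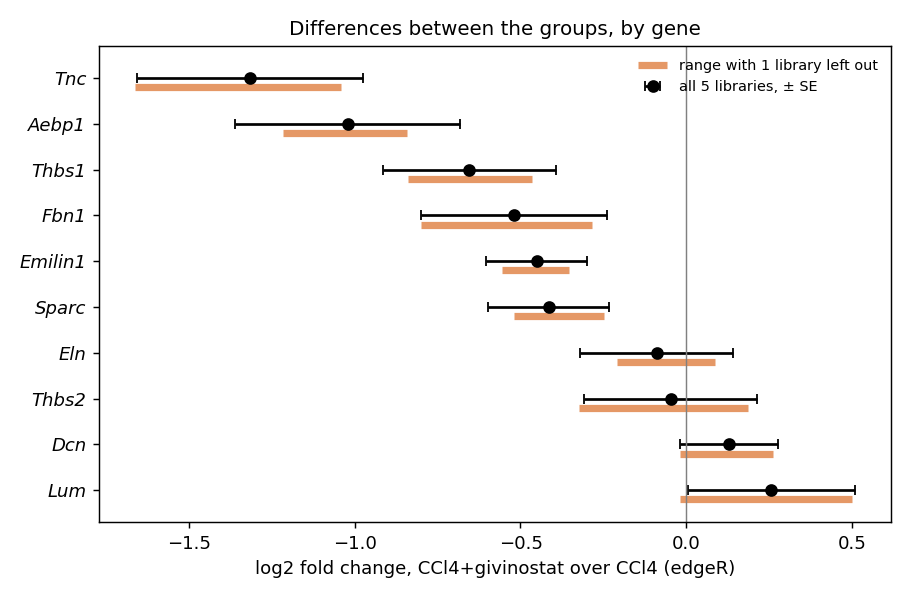
Log2 fold change of each gene, CCl4+givinostat over CCl4, with its SE (black), and its range when each of the 5 libraries is left out in turn (orange). Tnc, Aebp1, Thbs1, Fbn1, Emilin1 and Sparc stay below 0 throughout, and the ranges of Eln, Thbs2, Dcn and Lum cross 0.

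The 10 genes did not follow 1 common profile over the libraries. CCl4 replicate 3 held the highest CPM for 6 of them and the lowest for 0, while givinostat replicates 1 and 2 held the lowest for 4 and 3. Givinostat replicate 1, in which Tnc and Fbn1 were lowest, was also the library with the highest Lum and Dcn. Against the mean profile of the other 9 genes over the 5 libraries, Thbs1 had a Pearson r of 0.948 and Sparc of 0.877. Lum and Dcn had r of -0.09 and -0.30. These coefficients describe 5 libraries of 2 groups, on whose difference the genes were chosen, and carry no test.

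**Figure D4:**
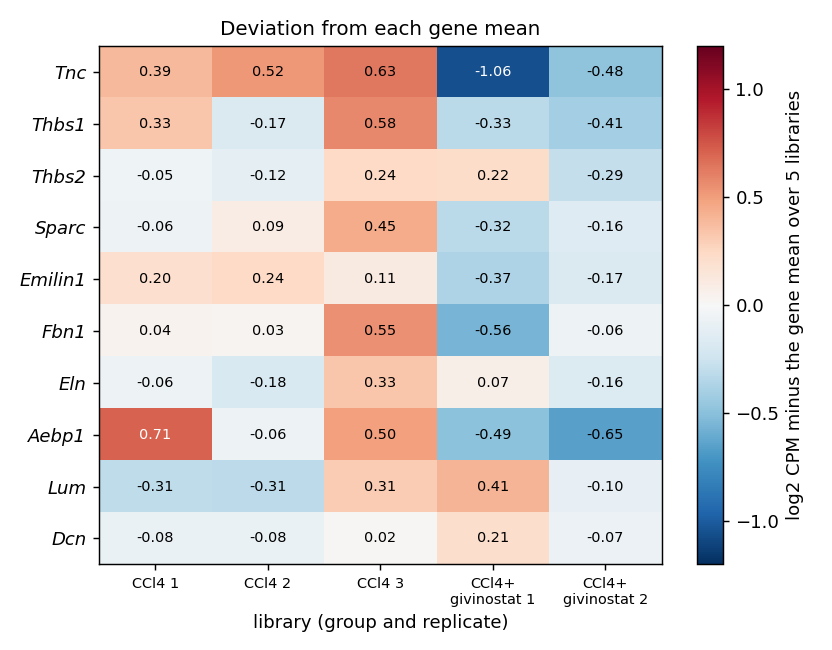
Log2 CPM of each gene minus its mean over the 5 libraries (colour and number), by library. CCl4 replicate 3 is above the mean for all 10 genes, and givinostat replicate 1 ranges from -1.06 for Tnc to 0.41 for Lum.

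Of 9712 other genes averaging at least 5 CPM, those closest to the mean profile of the 10 were Dnm2, Med27, Nfkbiz, Kctd13 and Camk1. Their Pearson r over the 5 libraries was 0.997, 0.997, 0.997, 0.993 and 0.991. In all, 44 of those genes, or 0.453%, had r above 0.95. The likeness is in shape and not in size, since Dnm2 stood at 51.2 to 60.9 CPM in all libraries.

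Markers of mesothelial and activated stellate cells, among other lists, had lower sums with givinostat, beside the lower genes. Mesothelial markers, 15 of 16 of them in the tables, summed to 125 to 152 CPM with CCl4 and to 84.3 to 92.7 CPM with givinostat, and 14 of 14 tested were lower. Most of that sum is Slc9a3r1, which is not restricted to these cells. In a sum added after seeing the data that leaves out each list's most abundant gene, here Slc9a3r1, the other 14 genes stood at 23.4 to 41.3 CPM with CCl4 and at 11.04 to 11.9 CPM with givinostat. The mesothelin gene Msln had 72, 24 and 54 counts with CCl4 and 0 and 1 with givinostat, and the uroplakin gene Upk3b had 76, 14 and 68 and then 1 and 2. Activated stellate cell and myofibroblast markers summed to 170 to 281 CPM with CCl4 and to 131 to 165 CPM with givinostat, with 11 of 12 tested lower and Cthrc1 at 0 in all libraries. Without Col3a1 these sums were 124 to 193 CPM and 96.7 to 108 CPM. This list shares Col1a1, Col1a2 and Col3a1 with the collagen list, and Lox, Mfap4 and Ltbp2 with the elastic fibre list. Its sum is thus partly a sum of matrix genes. Of its other tested genes, Tagln and Timp1 were lower without overlap, and Acta2, Pdgfrb and Cnn2 overlapped between the groups. Pdgfra was higher in both givinostat libraries (12.68 and 13.02 CPM) than in the CCl4 libraries (8.998 to 10.85 CPM). Portal fibroblast markers summed to 129 to 184 CPM and to 88.7 to 94.0 CPM, with 7 of 9 tested lower. That sum is mostly Gas6, and without it the sums overlapped at 24.2 to 30.3 CPM and 21.95 to 27.8 CPM. Of that list, Mfap5 had 1 count in CCl4 replicate 1 and 0 elsewhere, whereas Entpd2 had 90 to 153 and Dpt 111 to 188 counts over the libraries. Quiescent stellate cell markers summed to 348 to 420 CPM and to 395 to 408 CPM, with 6 of 15 tested lower, so the groups overlapped. Other lists leaned lower too, with 6 of 7 tested vascular smooth muscle and 12 of 14 Kupffer and macrophage markers lower. So were 9 of 11 sinusoidal and 8 of 9 vascular endothelial markers. The sums of these 4 lists overlapped between the groups. The sinusoidal sum split the givinostat libraries, at 189 CPM in replicate 1 and 432 CPM in replicate 2, beside 275 to 451 CPM with CCl4. Without Mylk, the smooth muscle sums were 26.3 to 40.2 CPM with CCl4 and 22.3 to 25.4 CPM with givinostat, without overlap. The smooth muscle list shares Acta2 and Tagln with the activated stellate list and Des with the quiescent stellate list. Of its genes outside those lists, Smtn was lower without overlap, whereas Myh11 and Lmod1 overlapped between the groups. None of the tested genes in any of these lists was called by edgeR over all genes. The part of these cells in the lower Tnc, Aebp1 and Thbs1 values was not tested.

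Genes that make, hold, sense or cut these proteins were taken from 7 lists that contain none of the 10. Of their 160 distinct tested genes, 0 passed edgeR's test over all genes. At an unadjusted p under 0.05, 19 of the 160 were lower and 5 higher, beside the same 3.93% and 3.52% of all tested genes. Their median log2 fold change was -0.13, and 108 of 160 were negative. DESeq2 called 2 of the 160, the scavenger receptor gene Cd36 and Col15a1. The 7 lists were chosen with earlier results of these data known, so these counts are not independent evidence for a change.

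Of 26 tested elastic fibre and microfibril genes outside the 10, 19 had a lower fitted value (median -0.23), 4 were lower and 0 higher at an unadjusted p under 0.05, and 0 were called by edgeR or DESeq2 over all genes. That median was -0.06 without CCl4 replicate 3. The smallest p-values belonged to Loxl4 and Loxl1, lysyl oxidases of the family that cross-links elastin and collagen, and to Fbn2, the gene of fibrillin-2. Fbn2, the closest relative of Fbn1 here, had 19, 16 and 26 counts with CCl4 and 5 and 7 with givinostat, by -1.82 ± 0.53 on the log2 scale (SE; adjusted p = 0.439 by edgeR). Loxl4 was 6.68, 13.2 and 9.77 CPM in CCl4 replicates 1 to 3, then 2.55 and 5.12 CPM under givinostat, and Loxl1 was at 5.36, 3.95 and 6.18 CPM and at 3.44 and 1.57 CPM. The groups did not overlap for these genes. Their log2 fold changes were -1.36 ± 0.39 and -1.05 ± 0.38 (SE), with edgeR adjusted p-values of 0.420 and 0.561. Loxl4 was called without CCl4 replicate 1, at -1.57. Loxl1 was at -0.58 without givinostat replicate 2 and at -1.71 without givinostat replicate 1.

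Of 18 other tested matricellular genes, 15 had a lower fitted value (median -0.14), 3 were lower and 0 higher at an unadjusted p under 0.05, and 0 were called by either tool. Without CCl4 replicate 1 that median was -0.26, and without givinostat replicate 1 it was -0.22. Those 3 were Spp1 (osteopontin), Smoc2 (a relative of SPARC) and Mgp (matrix Gla protein, an inhibitor of calcification). Their log2 fold changes were -0.67 ± 0.26, -0.71 ± 0.29 and -0.57 ± 0.24 (SE), with edgeR adjusted p-values of 0.592, 0.643 and 0.656. Spp1 was at -0.40 without givinostat replicate 2 and at -0.44 without CCl4 replicate 3. Spp1 is also the most abundant gene of the cholangiocyte list, whose 11 genes summed to 256 to 342 CPM with CCl4 and to 201 to 222 CPM with givinostat. Without Spp1 the other 10 summed to 148 to 179 CPM and to 95.6 to 152.5 CPM, so the groups overlapped. Whether Spp1 follows those cells was not tested.

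The 9 other tested proteoglycan genes of the lumican and decorin class were mixed, with 4 lower and 5 higher fitted values and a median of 0.05. None passed an unadjusted p under 0.05 in edgeR, and 0 were called by DESeq2. Bgn, the biglycan gene and a close relative of Dcn, had CCl4 and givinostat means of 108 ± 13.1 CPM (SD, n = 3) and 92.5 ± 4.84 CPM (SD, n = 2), and the groups overlapped (log2 fold change -0.22 ± 0.16, SE). Omd and Fmod were at 0.84 ± 0.79 and 0.34 ± 0.38 (log2, SE), and Omd averaged under 1 CPM in both groups. Omd was at -0.28 without givinostat replicate 1, at 0.40 without CCl4 replicate 3 and at 1.48 without givinostat replicate 2. Fmod was at 0.13 without CCl4 replicate 2 or without givinostat replicate 1, at 0.61 without CCl4 replicate 3 and at 0.52 without givinostat replicate 2. The list median lay on either side of 0 with 1 library left out, from -0.13 to 0.12.

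Among 25 tested receptor genes, 17 had a lower fitted value (median -0.13), with 2 lower and 2 higher at an unadjusted p under 0.05 and 0 called by edgeR. Cd36, which binds the thrombospondins and also imports fatty acids, measured 128, 106 and 115 CPM in CCl4 replicates 1 to 3, then 173 and 210 CPM under givinostat. The givinostat libraries were both higher, by 0.72 ± 0.16 on the log2 scale (SE; adjusted p = 0.250 by edgeR and 0.0162 by DESeq2). Without CCl4 replicate 1 edgeR also called Cd36, at 0.79. Itga9, an integrin subunit that binds tenascin-C, and Notch3 were at -0.66 ± 0.24 and -0.71 ± 0.29 (log2, SE), with edgeR adjusted p-values of 0.568 and 0.643. Itga9 was at -0.35 without givinostat replicate 1 and at -1.05 without givinostat replicate 2.

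Enzymes that cut these proteins had a median of -0.02 over 23 tested genes, with 13 lower, and 3 lower and 1 higher at an unadjusted p under 0.05. The metalloproteinase genes Mmp19, Mmp3 and Mmp13 had the smallest p-values, with log2 fold changes of -0.56 ± 0.17, 1.72 ± 0.58 and -1.19 ± 0.42 (SE) and edgeR adjusted p-values of 0.471, 0.521 and 0.537. Mmp3 was scarce, with CCl4 and givinostat means of 0.194 ± 0.0902 CPM (SD, n = 3) and 0.660 ± 0.108 CPM (SD, n = 2). Mmp13, whose groups overlapped, was called without CCl4 replicate 1, at -1.47, and was at -0.77 without givinostat replicate 1 and -1.79 without givinostat replicate 2. Regulators of matrix genes had a median of -0.13 over 33 tested genes, with 20 lower, and 2 lower and 1 higher at that level. Those 3 were the AP-1 gene Jun at -0.70 ± 0.23, Smad7, a feedback inhibitor of TGF-beta signalling, at -1.096 ± 0.37, and the TGF-beta receptor gene Tgfbr2 at 0.39 ± 0.16 (log2, SE), with edgeR adjusted p-values of 0.501, 0.512 and 0.639. Leaving out CCl4 replicate 1 put the median of the regulators at 0.08, and leaving out givinostat replicate 1 put it at 0.03. In both lists, 0 genes were called by edgeR or DESeq2 over all genes.

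Collagen chains also had a negative median. Of 27 tested, 21 had a lower fitted value (median -0.37), with 5 lower and 1 higher at an unadjusted p under 0.05 and 0 called by edgeR. Col15a1, a basement membrane collagen, measured 13.4, 12.99 and 11.5 CPM in CCl4 replicates 1 to 3, then 6.04 and 7.81 CPM under givinostat. Its groups were well apart, by -0.87 ± 0.21 on the log2 scale (SE; adjusted p = 0.330 by edgeR and 0.0438 by DESeq2). Col4a1 was at -0.55 ± 0.19, and was called without CCl4 replicate 1 at -0.69, while Col20a1 was at 1.06 ± 0.35 (log2, SE), with edgeR adjusted p-values of 0.521 and 0.512. The collagen median was -0.14 without CCl4 replicate 3. The difference between the collagen median and that of the 10 genes was not tested.

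**Figure D5:**
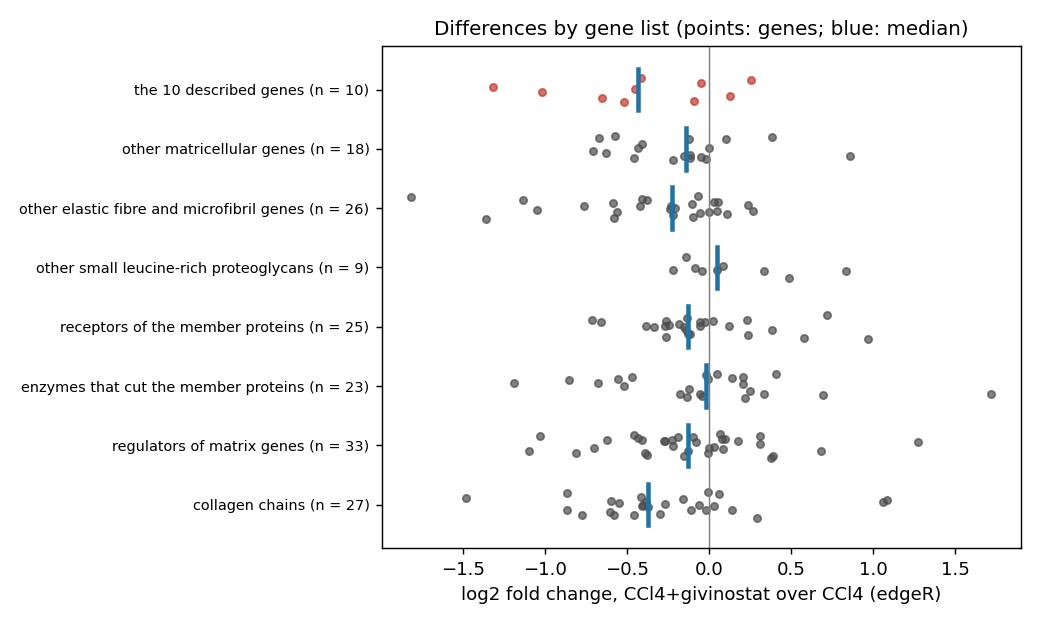
Log2 fold change of each tested gene, CCl4+givinostat over CCl4, by list (points), with the list median (blue), for the 10 described genes (red) and 7 related lists (grey). The medians run from -0.43 for the 10 genes, which were chosen on these values, to 0.05 for the other proteoglycans.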

How the data were processed

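Libraries were prepared from total RNA of frozen liver with Illumina's TruSeq RNA kit, according to the labels. The authors deposited unnormalized read counts by gene symbol, 24834 rows for each library. Bowtie 0.12.2 and the genome builds mm10 and mm8 appear in the submitters' processing notes without stated roles. How reads were counted, with which annotation and with or without strand, is not given in the sources used here.

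Rows with a calendar date for a symbol, 26 per table with 0.144 to 0.169% of counts, were left out. Genes passed filterByExpr, libraries were scaled by TMM, and an edgeR 4.0.16 quasi-likelihood model (R 4.3.3) was fitted to 5 libraries with treatment as the sole term, with Benjamini-Hochberg adjustment over 13590 genes and 3 residual degrees of freedom. A standard error is the size of the log2 fold change over the square root of F, and the common biological coefficient of variation came to 20.0%. CPM uses TMM-scaled sizes, and log2 CPM a prior count of 2. A count of 3, the limit that a count of 0 allows, is 0.135 to 0.156 CPM. Principal components used the tested genes. Every pair of libraries differed beyond sampling noise (chi-square per degree of freedom 26.2 to 82.4). Replicates count as mice because the series design says so, and no batch is labelled.

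Positions, transcript lengths and overlaps come from GENCODE M21 on GRCm38, and promoters from RefSeq. The 10 genes and all lists were chosen with earlier results of these data known. Named genes are the 10, the 3 smallest edgeR p-values of each of the 7 lists (called genes first, had there been any), and the 5 genes closest in profile to the 10. Cell markers are named only beside a result, whether or not they move with it. Alternatives were RLE scaling, no count filter, a minimum of 10 counts throughout a group, DESeq2 1.42.0, the replicate number as a block, and each library left out. The fit was tested on simulated data.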

Additional observations from a re-analysis of the deposited data

How the results depend on the processing

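None of the 10 genes was called by edgeR or DESeq2 over all genes under any of 10 alternatives, and 6 of them kept a negative log2 fold change throughout. Thbs2 and Eln turned positive with the replicate block (0.05 and 0.08), without CCl4 replicate 3 (0.08 and 0.09) and without givinostat replicate 2 (0.19 and 0.02). Lum and Dcn turned negative without givinostat replicate 1. The median of the 10 was -0.53 to -0.28 with each library left out. Over all genes, 1 was called higher and 0 lower, against 69 and 79 by DESeq2, 23 and 15 with no count filter, 68 and 77 with the replicate block, 0 higher with the stricter filter, and 0 to 119 higher and 0 to 116 lower with 1 library left out, the highest without CCl4 replicate 1. Of the genes on the 7 lists, 0 were called in either direction, against 1 higher and 1 lower by DESeq2, 2 lower with the replicate block (Loxl4 and Smad7), and 0 to 1 higher and 0 to 3 lower with 1 library left out. List medians with 1 library left out ran from -0.42 to -0.14 (collagens), -0.15 to 0.14 (cutting enzymes), -0.26 to -0.11 (other matricellular), -0.30 to -0.06 (other elastic fibre and microfibril), -0.13 to 0.12 (other proteoglycans), -0.17 to -0.065 (receptors) and -0.28 to 0.085 (regulators). With the replicate block they were -0.16 for collagens, -0.11 for elastic fibre and microfibril genes, 0.17 for cutting enzymes and 0.30 for other proteoglycans. Libraries of the same number did not deviate together (r = -0.15 and -0.08 over 13590 genes). With only 2 givinostat libraries, whose deviations from their mean mirror each other, this cannot settle whether the number pairs them. The cause of these shifts was not tested. Tnc, Aebp1, Fbn2 and Mmp3 rest on few reads, which limits the precision of their values.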
